A study of Mus musculus with 4 samples.

Results

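The RUNX proteins are the DNA-binding subunits of core binding factor, and 2 of their genes, Runx1 and Runx3, carried 9 of the 1585 listed LMO2 peaks. Runx3 had 6 peaks and Runx1 had 3, and Runx2, the remaining gene of the family, had 1. The peaks were chosen by the gene name that the deposited list gives with its nearest transcription start site (TSS), so their presence and their scores are a description and were not tested. LMO2 binding was measured by chromatin immunoprecipitation and sequencing (ChIP-seq) in pro-B(+) cells. This is 1 Ebf1-deficient line of C57BL6/J background, derived from fetal liver progenitors. Loss of Ebf1, a factor required for B cell development, is shared by every sample. The cells grew on OP9 stromal cells with SCF, IL-7 and Flt3L and were fixed with DSG and formaldehyde. A mixture of anti-Lmo2 antibodies gave 2 LMO2 ChIP samples, and 1% input gave 2 input samples. Nothing in the labels says that the samples came from separate cultures. The list holds 1 value per peak for both ChIP samples together, so neither the replicate error nor the depth behind a value is known.

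LMO2 is a LIM-domain protein that does not bind DNA itself and bridges DNA-binding factors, among them the basic helix-loop-helix (bHLH) proteins TAL1, LYL1 and E2A and the GATA factors, through LDB1. RUNX proteins bind DNA through the Runt domain and need the partner CBFβ for strong binding. Runx1 is needed for the formation of definitive hematopoietic stem cells, Runx3 is known for its roles in T cells and natural killer cells, and Runx2 is the bone factor of the family. Each gene is transcribed from a distal and a proximal promoter, which give proteins with different amino ends. The word TGTGGT is the core that the Runt domain recognizes, and it was in 871 of the 1584 peaks on chromosomes (55.0%).

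Sequences of 7 peaks are printed because they show which words lay under the LMO2 peaks at the genes of the RUNX factors. Each runs along the plus strand of GRCm38 (mm10) and covers the 207 bp of the listed peak. Capitals mark words on either strand. The RUNX word was TGTGGT, which reads as ACCACA from the other strand. The bHLH words were CAGCTG, which reads the same both ways, and a later addition, CAGATG, which reads as CATCTG from the other strand. The ETS word was CTTCCT, which reads as AGGAAG from the other strand. The GATA words were AGATAA, or in reverse TTATCT, as well as TGATAA, or in reverse TTATCA. Peaks are named by their distance from the distal start of the gene. The first 3 are the Runx3 peaks that hold RUNX words, at chr4:135120379-135120585, chr4:135131196-135131402 and chr4:135192892-135193098.
Runx3 -0.2 kb: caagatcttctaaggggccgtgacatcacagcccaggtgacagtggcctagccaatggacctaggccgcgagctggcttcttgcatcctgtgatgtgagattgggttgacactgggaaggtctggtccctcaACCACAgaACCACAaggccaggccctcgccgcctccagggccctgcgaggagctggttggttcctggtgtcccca
Runx3 +10.7 kb: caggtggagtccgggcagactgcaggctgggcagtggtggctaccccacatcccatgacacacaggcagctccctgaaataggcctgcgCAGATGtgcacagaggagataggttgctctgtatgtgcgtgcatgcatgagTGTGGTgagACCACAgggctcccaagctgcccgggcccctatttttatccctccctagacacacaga
Runx3 +72.3 kb: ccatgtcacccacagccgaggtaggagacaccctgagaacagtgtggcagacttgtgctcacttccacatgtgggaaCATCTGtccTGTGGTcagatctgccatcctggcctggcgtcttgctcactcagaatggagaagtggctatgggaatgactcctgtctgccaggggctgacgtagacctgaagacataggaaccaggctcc
The next 3 are the Runx1 peaks, at chr16:93028749-93028955, chr16:92801669-92801875 and chr16:92715586-92715792. Runx1 lies on the minus strand, so its transcription runs from right to left in these lines.
Runx1 -202.8 kb: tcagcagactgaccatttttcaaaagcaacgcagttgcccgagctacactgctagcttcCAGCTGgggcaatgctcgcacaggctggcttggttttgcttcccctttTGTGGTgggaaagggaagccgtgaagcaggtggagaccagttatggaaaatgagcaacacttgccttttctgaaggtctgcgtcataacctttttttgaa
Runx1 +24.3 kb: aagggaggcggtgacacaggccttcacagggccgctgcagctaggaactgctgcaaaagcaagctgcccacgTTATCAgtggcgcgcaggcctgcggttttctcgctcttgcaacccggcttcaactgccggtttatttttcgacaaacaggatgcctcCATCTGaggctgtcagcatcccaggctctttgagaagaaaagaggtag
Runx1 +110.4 kb: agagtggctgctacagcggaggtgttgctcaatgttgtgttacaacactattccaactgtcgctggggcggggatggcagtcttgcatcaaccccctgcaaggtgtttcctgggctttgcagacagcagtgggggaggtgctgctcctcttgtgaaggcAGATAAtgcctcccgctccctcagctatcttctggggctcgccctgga
The last is the Runx2 peak at chr17:44654620-44654826, which held no RUNX word. Runx2 also lies on the minus strand.
Runx2 +160.1 kb: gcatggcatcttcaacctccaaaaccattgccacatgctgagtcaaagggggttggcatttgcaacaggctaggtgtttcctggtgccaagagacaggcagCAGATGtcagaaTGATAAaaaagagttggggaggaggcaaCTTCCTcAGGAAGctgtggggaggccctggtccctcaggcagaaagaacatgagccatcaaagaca

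Runx3 (gene ID 12399) lies on the plus strand at chr4:135120645-135177990, with its distal start at the first of these bases and its proximal start 31900 bp further in. By gene name, its 6 peaks fell in 3 pairs. These lay at -50.6 and -40.0 kb, at -0.2 and +10.7 kb, and at +61.4 and +72.3 kb from the distal start. By place the last pair had a further neighbour, as the next listed peak, named for Clic4, began 13225 bp past the +72.3 kb peak. From centre to centre, the peaks of a pair were 10575, 10817 and 10984 bp apart, and the pairs were separated by 39844 and 50712 bp. From end to end the 6 peaks covered 123139 bp, in which no listed peak was named for another gene. This is 48.7 peaks per Mb, against 0.581 per Mb over the chromosomes, a density that the choice of the gene itself helps to fix.

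The peak at the distal Runx3 promoter had a score of 33.9, rank 259 of 1585 (the top 16.3%). The score is the peak caller's normalized peak score, whose scale the sources used here do not state, and the list starts at 15. This was the only peak at Runx1 or Runx3 annotated as promoter-TSS, with its centre 163 bp upstream of the distal start. Among the 126 promoter peaks of the list it was 11th by score, where the median was 18.4. It overlapped the 300 bp around the RefSeq distal start (250 bp before it to 50 bp after it) by 191 bp. The focus ratio, the fraction of a peak's reads placed as a single binding site would place them, was 0.745, rank 1204 of 1585. Among the 126 promoter peaks this was rank 67.

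The peak at +10.7 kb scored 32.4 (rank 287) with a focus ratio of 0.785 (rank 830). It lay in intron 1 of 5, between the distal and the proximal start. No listed peak lay in Runx3 beyond it: the proximal start was 20893 bp from the nearest peak, counted from the edge of its 300 bp promoter, and the exons downstream of it held none. The pair beyond the gene had unequal scores. The peak at +72.3 kb, 14902 bp past the annotated end of Runx3, scored 62.5 and ranked 63 of 1585, in the top 3.97% of the list, with a focus ratio of 0.807. It was the highest peak of the family and 9th of the 82 peaks on chromosome 4. Its neighbour at +61.4 kb (chr4:135181908-135182114), 3918 bp past the gene, scored 16.5 at rank 1249 and was the lowest, although its focus ratio of 0.826 (rank 396) was the highest of the 6.

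The upstream pair scored 26.1 at -50.6 kb (chr4:135069960-135070166, rank 457) and 20.7 at -40.0 kb (chr4:135080535-135080741, rank 759). Both were intergenic and were the least focused of the Runx3 peaks. Their focus ratios were 0.723 (rank 1351) and 0.663 (rank 1519), so the peak at -40.0 kb stood at 95.8% of the way down the list.

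On the downstream side, the gene name depended on which starts the list used. For both peaks past the gene it gave the distance from the distal start of Runx3, although the RefSeq proximal start was nearer, at 29466 bp from the +61.4 kb peak and 40450 bp from the +72.3 kb peak. The next listed peak, at chr4:135206323-135206529, began 13225 bp past the +72.3 kb peak, scored 27.5 and was named for Clic4, a chloride channel family gene, whose start was 66334 bp from it. The proximal start of Runx3 was nearer to it, at 53881 bp, and the distal start was 85781 bp away. The +72.3 kb peak itself lay 79765 bp from the start of Clic4 and was nearer to both starts of Runx3. Which gene either peak acts on was not measured.

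**Figure D1:**
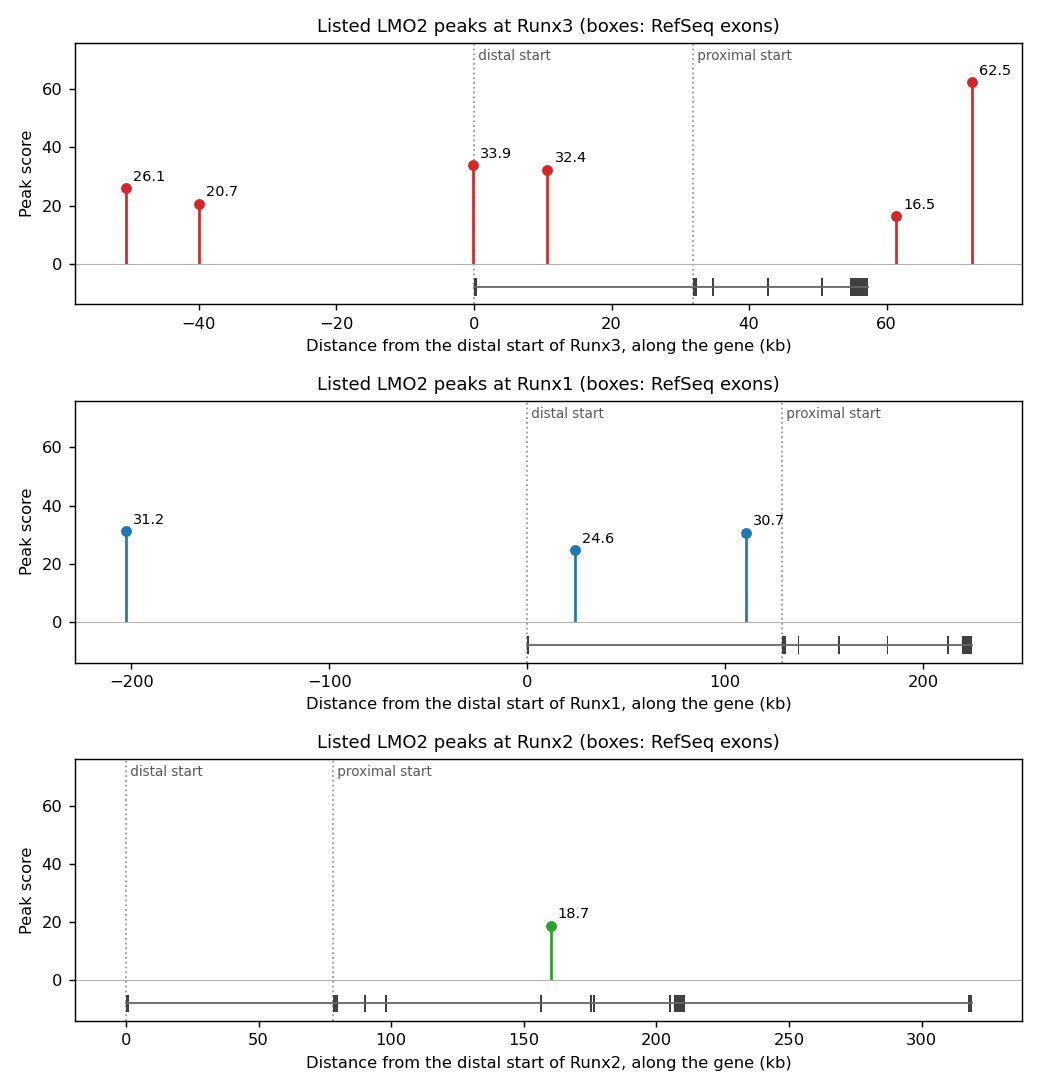
LMO2 peaks at Runx3, Runx1 and Runx2. Each stem is a listed peak, placed by its distance in kb from the distal start along the direction of transcription and as high as its peak score. Grey boxes are RefSeq exons and dotted lines the distal and proximal starts. The 6 peaks named for Runx3 form 3 pairs, and the highest peak (62.5) lies beyond the gene. The next listed peak, named for Clic4, is not drawn. The intronic Runx1 peaks (24.6 and 30.7) lie between both starts.

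Runx1 (gene ID 12394) lies on the minus strand at chr16:92601466-92826074, and its proximal start is 128745 bp downstream of the distal one. Its 3 peaks had closer scores than those of Runx3, from 24.6 to 31.2 against 16.5 to 62.5. The peak at +24.3 kb scored 24.6 (rank 518, focus ratio 0.81) and the peak at +110.4 kb scored 30.7 (rank 319). Both lay in intron 2 of 6, between the distal and the proximal start, and the second was 18360 bp upstream of the proximal start. The intron between both starts of Runx1 is known to hold a hematopoietic enhancer. At +110.4 kb the focus ratio was 0.886, rank 48 of 1585, the highest among the 10 peaks of the family.

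The third Runx1 peak, at -202.8 kb, scored 31.2 (rank 308, focus ratio 0.807) and was intergenic. The nearest coding starts other than those of Runx1 were 530705 bp (Clic6) and 575939 bp (Setd4) away from it. The nearest listed peak of another gene, named for Setd4 with a score of 15.1, was 523831 bp beyond it. Between the starts of Clic6 and Setd4, an interval of 1106644 bp, the list held 4 peaks, 3 of them at Runx1. The matching interval around Runx3, from the start of Syf2 to that of Clic4, was 341780 bp and held 7 peaks, 6 of them at Runx3. These are 3.61 and 20.5 listed peaks per Mb. No listed peak touched either promoter of Runx1: the nearest was 24150 bp from the 300 bp around the distal start and 18007 bp from those around the proximal start.

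A place shared by both genes was the intron between the starts. All 3 intronic peaks (Runx1 +24.3 kb, Runx1 +110.4 kb and Runx3 +10.7 kb) lay downstream of the distal and upstream of the proximal start, and no listed peak lay in either gene beyond the proximal start. From the distal to the proximal start is 128745 of the 224609 bp of Runx1 and 31900 of the 57346 bp of Runx3. This is the larger part of each gene. The single Runx2 peak differed in place, in a gene where the same stretch is 78149 of 318811 bp. Runx2 (gene ID 12393, chr17:44495987-44814797, minus strand) had its peak 160074 bp from the distal start and in intron 2 of 4 of the annotated transcript, and the list gave 81453 bp from the nearest start. It scored 18.7 (rank 966 of 1585, focus ratio 0.811), which was below 8 of the 9 peaks at Runx1 and Runx3. The nearest other coding start to it was that of Supt3, 122395 bp away.

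**Figure D2:**
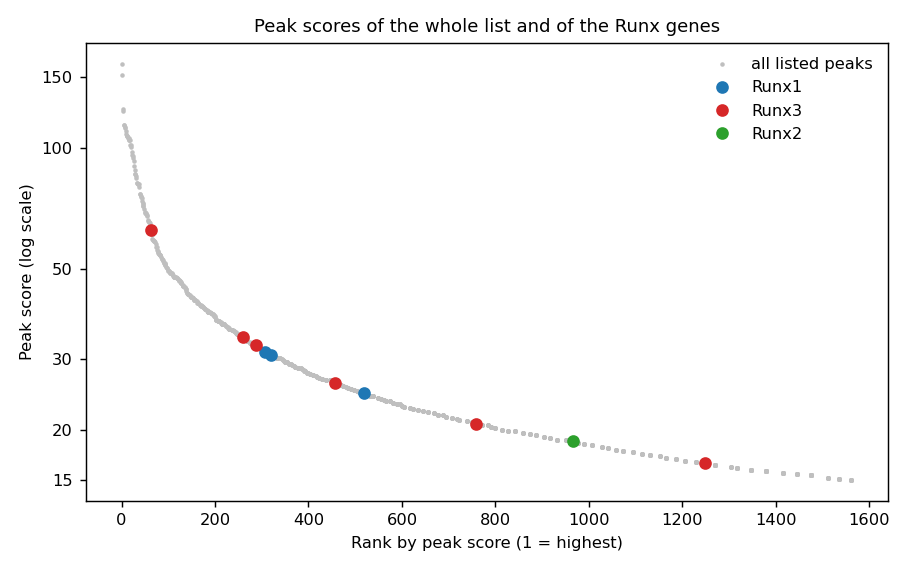
Peak score on a log axis against rank for all 1585 listed peaks (grey), with the peaks at Runx1 (blue), Runx3 (red) and Runx2 (green). The 9 peaks at Runx1 and Runx3 run from rank 63 to rank 1249, and 8 of them lie above the list's median score of 20.3.

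Over the 9 peaks the median score was 30.7, beside 20.3 over the whole list. A score of at least 30 was reached by 5 of the 9 (55.6%) and by 342 of the 1585 (21.6%). Runx1 and Runx3 had medians of 30.7 and 29.25, and Runx3 had the larger number of peaks by gene name and the highest peak. Counted in the gene body, the order of the numbers turned around, with 2 peaks in Runx1 and 1 in Runx3. The body of Runx1 is also the longer, 224609 bp against 57346 bp. As many body peaks as Runx1 were found for 0.459% of coding genes, and as many as Runx3 for 3.04%. The lowest scores of the family, 16.5 at Runx3 and 18.7 at Runx2, were above the list's lower limit of 15, at which 25 peaks stood. By position, 5 of the 9 peaks were intergenic (55.6%, against 48.5% of the list), 3 were intronic (33.3% against 38.2%) and 1 lay within 1 kb of a start (11.1% against 10.9%). More than 10 kb from a start were 8 of 9 (88.9% against 65.7%). The median focus ratio of the 9 was 0.807 and that of the list 0.788. All 3 Runx1 peaks were at or above 0.807, while 4 of the 6 Runx3 peaks were below the list's median.

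**Figure D3:**
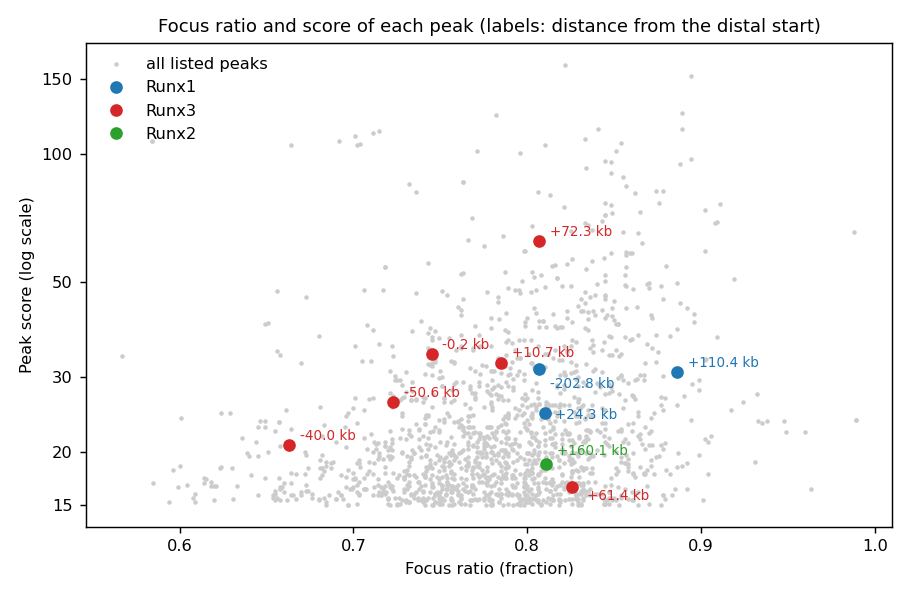
Focus ratio (fraction, horizontal axis) against peak score (log axis) for all listed peaks (grey) and those at Runx1, Runx3 and Runx2, which carry their distance from the distal start. The Runx3 peaks spread from 0.663 to 0.826, and the Runx1 peak at +110.4 kb stands furthest right of the family at 0.886.

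By number of peaks Runx3 stood near the top of the list, and it was chosen with that number known. With 6 peaks it was the only protein-coding gene with 6 or more (1 of 21774 RefSeq coding genes, 0.00459%). Runx1 was 1 of 39 coding genes with at least 3 peaks (0.179%), whereas at least 1 peak, as at Runx2, was found for 979 coding genes (4.5%). Over all 1167 genes named in the list, Runx3 came 2nd, after the microRNA gene Mir6388 with 7. In 5 of those 7 peaks 50% or more of the 50 bp words occurred elsewhere in the genome, and in Speer1, with 5 peaks, all 5 were of this kind. None of the 10 peaks at the Runx genes held a repeated 50 bp word, and none did at Cbfa2t3 (5 peaks). By summed score Runx3 (192.1) was 8th and Runx1 (86.5) was 52nd. With a score of at least 30 required, Runx3 kept 3 peaks and Runx1 kept 2.

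**Figure D4:**
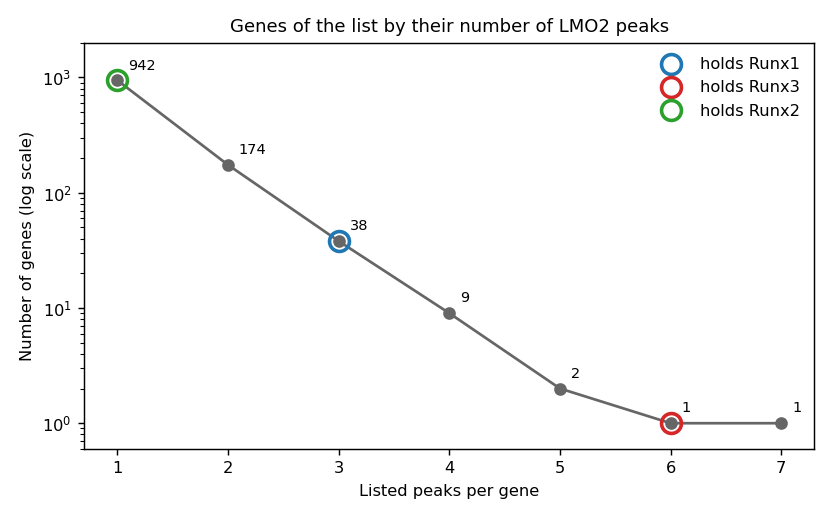
Number of genes (log axis) by their number of listed LMO2 peaks, with the classes that hold Runx1, Runx3 and Runx2 circled. Of the 1167 genes, 942 had a single peak, as Runx2 did, 38 had 3, as Runx1 did, and Runx3 alone had 6.

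Counted by place and not by gene name, 6 or more listed peaks within 123139 bp, the length covered at Runx3, were found in 3 places. The other 2 were clusters of histone genes on chromosome 13, with 11 and 14 peaks of median score 20.2 and 19.35. The place with 14 peaks, chr13:23531215-23799656, was longer than 123139 bp, so its count covers a longer stretch than that at Runx3. At Runx3 the median was 29.25, with 6 peaks. This count was chosen after the Runx3 peaks were known. Genes with 3 peaks and a highest score near that of Runx1 included Rprl1 (32.0, 25.3 and 15) and Rplp1 (32.4, 22.5 and 22.4). Both had their highest peak close to the 31.2 of Runx1, and each had a lowest peak under the 24.6 of Runx1. No other gene had 6 peaks.

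The words under the peaks were counted in the 200 bp around each centre. The RUNX word was present in 4 of the 9 peaks (44.4%), beside 871 of 1584 in the list (55.0%). In 100 bp windows it was again in 4 of 9 (44.4%), beside 596 of 1584 (37.6%). Which share was larger thus depended on the window. At Runx3 the word was in 3 of 6 peaks, those at -0.2, +10.7 and +72.3 kb, which were also the 3 highest-scored. At Runx1 it was in 1 of 3, the peak at -202.8 kb, the highest of the gene. In that peak the word lay 6.5 bp from the centre, and at Runx3 +72.3 kb it lay 14.5 bp from it. At Runx3 -0.2 kb and Runx3 +10.7 kb the nearest RUNX word lay 31.5 and 39.5 bp from the centre. Over the 880 listed peaks with the word anywhere in them, the median distance from the centre to the nearest one was 31.5 bp. With TGCGGT counted too, Runx1 +24.3 kb was added, which gave 5 of 9 against 61.6% of the list.

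The RUNX words at the Runx3 promoter and at +10.7 kb came as close pairs. At the promoter peak, 2 copies stood on the minus strand at 135120511-135120516 and 135120519-135120524, 8 bp from start to start with 2 bases between them. At +10.7 kb, 2 copies stood on opposite strands at 135131336-135131341 and 135131345-135131350, 9 bp from start to start with 3 bases between them. Starts at most 10 bp apart were found in 25 of the 1584 peaks (1.58%), including these 2. The spacing was noticed in these peaks first and was then counted over the list. The 2 peaks with at least 2 RUNX words are 22.2% of the 9, beside 285 of 1584 (18.0%).

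Of the distal promoters with RUNX words in this family, only that of Runx3 overlapped a listed peak. The 300 bp promoter at the distal start of Runx3 held 2 RUNX words and the LMO2 peak. That at the distal start of Runx1 also held 2, with no listed peak, and that of Runx2 held 3, with the nearest peak 159752 bp away. The proximal promoters of Runx1 and Runx3 held none. Over 32851 RefSeq promoters of the same length, 5506 (16.8%) held at least 1 RUNX word and 595 (1.81%) at least 2.

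The bHLH word CAGCTG was in 2 of the 9 peaks (22.2%, against 33.6% of the list), Runx1 -202.8 kb and Runx3 -40.0 kb. In 100 bp windows the shares were 22.2% and 21.5%. The planned wider bHLH consensus, CAGCTG or CAGGTG, was in 3 of 9 (33.3%, against 52.7%). CAGATG, which bHLH dimers with TAL1 also bind, was added after the sequences were seen. It was in Runx1 +24.3 kb, Runx3 +10.7 kb and Runx3 +72.3 kb, and either word was in 5 of 9 (55.6%, against 60.7%). At Runx3 +72.3 kb CATCTG and TGTGGT stood 9 bp from start to start. A RUNX word and CAGCTG were found together in 1 of 9 peaks (11.1%, against 18.1% of the list). With CAGATG counted too, these were 3 of 9 (33.3%, against 34.7%), and the promoter peak of Runx3 held neither bHLH word.

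GATA words were in 2 of 9 peaks (22.2%, against 16.2% of the list), both in the intron of Runx1 and both in peaks with no TGTGGT. The ETS word CTTCCT was in 1 of 9 (11.1%), at Runx3 -50.6 kb, beside 816 of 1584 (51.5%). With a wider ETS consensus, chosen after the data were seen, the counts were 3 of 9 (33.3%) and 1216 of 1584 (76.8%). No peak at Runx1 or Runx3 held a RUNX and an ETS word together, as 28.7% of the list did. Counting error alone is large over 9 peaks, and no test was made. The Runx3 peak at +61.4 kb held none of the words, and the Runx2 peak held 2 ETS words, 1 GATA word and CAGATG. A match of a word is no evidence that the factor was bound, and a missing word says only that these letters were absent.

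**Figure D5:**
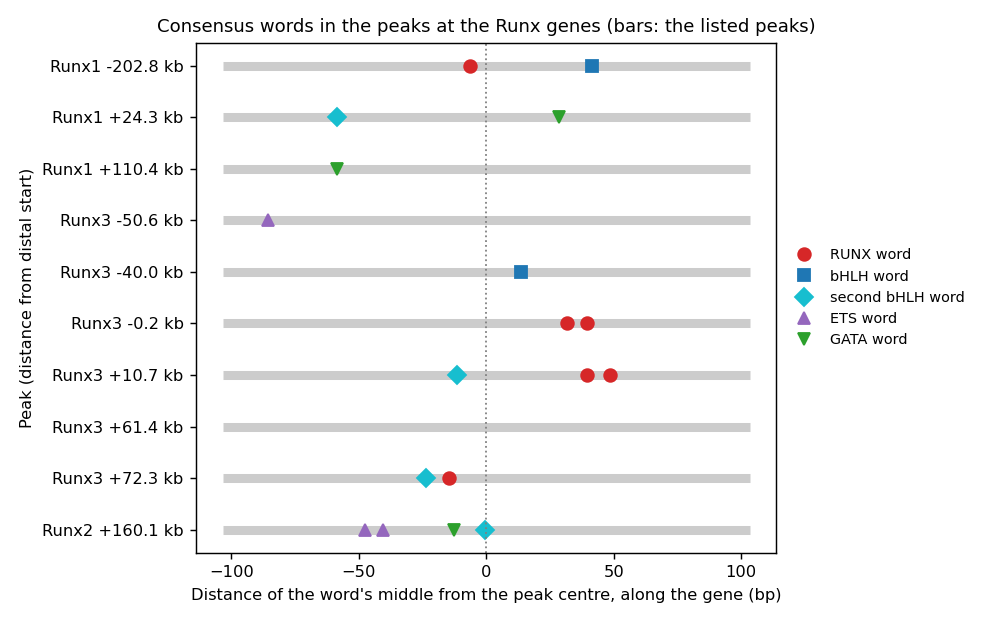
Positions of the consensus words in the 10 peaks at the Runx genes, as the distance in bp of each word's middle from the peak centre, along the direction of transcription. Grey bars are the 207 bp peaks. RUNX words (red circles) lie in 4 peaks, in 2 of them as a close pair, GATA words (green) lie in the intronic Runx1 peaks and in Runx2, and Runx3 +61.4 kb has no word.

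Base composition differed among the peaks. G and C bases made up from 43.0% (Runx3 +61.4 kb) to 63.8% (Runx3 -50.6 kb) of each peak, beside a list median of 52.7%. The upstream pair and the promoter peak of Runx3, with 63.8%, 63.3% and 60.9%, were the richest in G and C and also the 3 with the lowest focus ratios of the 9. Whether base composition plays a part in the focus ratio was not tested.

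The other genes of core binding factor and its partners were described by lists that were written with earlier results of these data known. Of the 4 core binding factor genes, 3 had a listed peak, and Cbfb, which encodes the shared partner subunit, had none. Among 7 progenitor factors that are known to bind together with LMO2 or RUNX1, 4 had a peak: Lyl1, a bHLH factor (125.3 and 24), Runx1, and the ETS factors Erg (23.9) and Fli1 (15.4 and 15.4). Tal1, Lmo2 and Gata2 had none by gene name, although 1 listed peak not named for Gata2 lay inside it or within 100 kb of it. Of 16 RUNX co-factors, Cbfa2t3, a corepressor of the ETO family, had 5 (101.7, 54.5, 47.9, 35.8 and 25.7), and Tle3, a Groucho corepressor, had 1 (19.5). By its highest peak (31.2), Runx1 stood below Lyl1 and Cbfa2t3 and above Erg and Fli1, although the lower Lyl1 peak was below all 3 Runx1 peaks. Of the 10 genes listed for the LMO2 complex, Lyl1 alone had a peak by gene name, and Cbfa2t3 was counted in the co-factor list only. With peaks inside the gene or within 100 kb counted, 4 of the 10 had a peak (40.0%, beside 18.9% of coding genes).

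Over all lists, 8 of 32 genes had a peak by gene name (25.0%), beside 4.5% of coding genes. As Runx1 and Runx3 were chosen for their peaks, this share is partly fixed by that choice, and without the 3 Runx genes it was 5 of 29 (17.2%). When a peak inside the gene or within 100 kb of it was counted, these were 15 of 32 (46.9%), or 12 of 29 (41.4%) without the Runx genes, beside 4107 of 21774 coding genes (18.9%). By that count Runx3 had 7 peaks, with the Clic4 peak added, Runx1 had 2, with the peak at -202.8 kb lost, and Runx2 had 1.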

How the data were processed

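LMO2 ChIP-seq peaks of pro-B(+) cells were taken from the list that the authors deposited. The authors aligned the reads with Bowtie 1.1.1 to mm10 and used HOMER to find peaks over the matched control. They gave each peak the nearest TSS and filtered the peaks for reproducibility by IDR. Only reproducible peaks with a normalized score of at least 15 were kept, so a weaker peak would not be listed. The deposited values are a normalized peak score from HOMER and a focus ratio, which is a fraction, each given once for both replicates. Read length and sequencer differ between the labels and the methods.

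Ranks, distances and word counts were computed here on both strands in 200 bp windows centred on the peaks, with genes, starts and sequence from RefSeq GRCm38.p6. The listed distances at Runx1 and Runx3 matched its starts. Of the 1585 peaks, 1584 on chromosomes entered the sequence counts, and Runx1, Runx2 and Runx3 matched 5 RefSeq promoters. Copies of each 50 bp word were counted over the genome, and the word search was tested on simulated data. No test was made, since there is 1 value per peak.

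The genes named are the Runx genes, the listed partners, genes with as many peaks as Runx1 or more, neighbouring genes with a peak within 100 kb, and the genes nearest to Runx1 in number and highest score, of which 1 is not reported here. The genes and lists were chosen with earlier results of these data known. Python 3.11.15, NumPy 2.4.6, pandas 2.3.3, pysam 0.24.0, samtools 1.23.1 and matplotlib 3.10.9 were used.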

Additional observations from a re-analysis of the deposited data

How the results depend on the processing

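Of 21 alternative values, 12 stayed within 1.5 times the reported count (the median score, within the SD of the 9 scores) and 9 moved further. With a minimum score of 30, the peaks at Runx3 went from 6 to 3, those at Runx2 from 1 to 0, and Runx1 moved from rank 14 to rank 8 of all genes by number of peaks. Counting peaks in the gene body left 1 of the 6 at Runx3, the peak at +10.7 kb, and 2 of the 3 at Runx1. Runx1 then had more, in a body of 224609 bp against 57346 bp at Runx3. In 100 bp windows the ETS word was in 0 of the 9 peaks in place of 1, and in 33.4% of the list in place of 51.5%. The wider ETS consensus, chosen after the data were seen, found it in 3 (33.3%, against 76.8% of the list). CAGATG, also added after the data were seen, raised the peaks with a bHLH word from 2 to 5 (55.6%, against 60.7% of the list). The planned wider bHLH consensus gave 3 (33.3%, against 52.7% of the list). Genes of the partner lists with a peak went from 8 to 15 with peaks inside the gene or within 100 kb, and to 5 of 29 without the Runx genes. The RUNX word stayed at 4 or 5 of 9 under the windows and the wider consensus tried. In 200 bp windows its 44.4% stood below the 55.0% of the list. In 100 bp windows its 44.4% stood above the 37.6% of the list. Without the highest peak the median score was 28.4.

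No paired analysis was possible because each peak has a single value for both replicates, so no replicate could be left out either. Scores near the lower limit of 15 carry no stated error, and genes were assigned by distance to a start only, so neither the strength of a peak between replicates nor the gene it acts on could be assessed.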
